A study of Mus musculus with 16 samples.

Results

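The oligoadenylate synthetase genes are the family of antiviral enzymes and enzyme-like proteins that mice carry on chromosome 5. All probes on the array named Oas1a, Oas1b, Oas1c, Oas1e, Oas1f, Oas1g, Oas2, Oas3, Oasl1 or Oasl2 were taken, which gave 10 of the 36450 genes on the array and 13 probes. The genes were chosen by a readout of these same arrays, the Lcn2-/- minus WT difference, in which Oas1a and Oas1f stood out. Every value of Lcn2-/- against wild type (WT) for the family is therefore a description with no test, and its tests are those of the response to injury and of how that response differs between genotypes. RNA was measured with 1-colour Agilent arrays on 16 liver samples from BALB/c males that were 6 to 8 weeks old when treatment began, BALB/c being an inbred strain of mouse. The Lcn2-/- mice lack the gene for lipocalin 2, a siderophore-binding protein secreted by liver and myeloid cells. Injury was made with CCl4, a solvent that hepatocytes convert to a toxic radical, given intraperitoneally in corn oil at 0.5 ml/kg with 2 injections in each of 4 weeks, and the liver was collected 48 h after the final injection. Control mice received corn oil. The controls were 4 WT and 3 Lcn2-/- samples, and the CCl4 groups were 5 WT and 4 Lcn2-/- samples, with 1 array each. Per the study's methods, the deletion was made in 129/Ola and C57BL/6 material and then crossed to BALB/c over many generations. All Lcn2-/- animals therefore share the deletion and any donor sequence that the crosses kept, and these cannot be told apart here.

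Oligoadenylate synthetases bind double-stranded RNA and then join ATP into short 2'-5'-linked oligoadenylates. These oligoadenylates are messengers that lead to the breakdown of viral and cellular RNA. Oas1a, Oas2 and Oas3 are active synthetases whose transcription is induced by interferon, while Oasl1 and Oasl2 carry a ubiquitin-like tail and act partly through other routes. In the mouse the Oas1 gene has been duplicated into a tandem cluster beside Oas2 and Oas3, and Oas1b within it is known as the flavivirus resistance gene, which most laboratory strains carry in a truncated form.

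Levels are log2 of the quantile-normalized signal of a probe, and they may be compared between arrays for 1 probe but not between probes. A probe counts as detected on an array where the scanner software marked it as well above background. In whole liver, fewer cells of a type and less RNA per cell cannot be told apart. Between 51.6% and 60.9% of spots were detected per array. The Lcn2 probe followed the genotype labels, since the highest Lcn2-/- array (12.25) lay below the lowest WT array (13.79). The 6 hepatocyte markers were all detected, and the log2 of their summed level stayed between 20.71 and 21.04 on every array. WT control 3 and Lcn2-/- control 3 were the highest controls of their genotype for the summed macrophage and neutrophil markers. For T, B and NK cell markers WT control 3 was the highest WT control too (13.15). Lcn2-/- control 3 (12.83) lay below another Lcn2-/- control there (12.98). On these 2 arrays the log2 of the summed level of the 6 macrophage and Kupffer cell markers was 17.75 and 17.7, against a lowest control of 16.28. That of the 5 neutrophil markers was 15.37 and 15.7, against 13.16 and 12.99 on the lowest control of each genotype. The family's CCl4 responses are therefore also given without these 2 arrays, and so are list genes whose call that changes. That setting was added after the data were seen. Removing the controls with the most interferon-induced RNA by construction raises the CCl4 response of such genes and narrows their spread. Calls of such genes in that setting are therefore descriptions and not tests.

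Oas1a, an active synthetase of the cluster, was detected on the Lcn2-/- arrays and almost nowhere else. Its first probe (probe 1) lies on chromosome 5 at 121346735 to 121346794 (mm9, minus strand). In WT control livers, probe 1 read 5.13, 3.57, 5.69 and 4.28 on arrays 1 to 4, and array 3 (5.69) was the only detected value. In WT CCl4 livers it read 3.18, 2.96, 4.53, 2.96 and 3.67, with none detected. In Lcn2-/- control livers it read 13.23, 12.75 and 14.95, and in Lcn2-/- CCl4 livers it read 14.06, 14.43, 14.61 and 14.28, all detected. The lowest Lcn2-/- array thus lay above the highest WT array by several log2 units. The difference between genotypes under CCl4 was 10.88 ± 0.484 (log2, SE of the limma fit), with group means of 14.34 ± 0.231 (SD, n = 4) against 3.46 ± 0.665 (SD, n = 5). Because the probe was not detected on any WT CCl4 array, the size rests on values at background. On this signal the Lcn2-/- level was at least 767-fold higher, a bound that holds for this background subtraction alone, since the difference was 7.83 (log2) with normexp background correction and 9.14 in the authors' log2 table. For the bound, each dim array was given the lowest signal of any detected probe, or the dim probe's own signal where that was higher, and the mean of these was set against the mean of the bright group. In controls the difference was 8.98 ± 0.551 (SE), from 13.64 ± 1.16 (SD, n = 3) against 4.67 ± 0.933 (SD, n = 4). Only 1 of the 4 WT arrays was detected, so this size too rests mostly on values at background, and it was 6.78 with normexp correction and 7.67 in the authors' table.

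The other Oas1a probe (probe 2, chromosome 5, 121348338 to 121348397, minus strand) gave the same split. It read 3.02, 3.06, 3.36 and 3.02 in WT control and 2.94, 3.21, 2.95, 2.95 and 2.95 in WT CCl4 livers, and it was detected on none of these arrays. It read 10.37, 9.90 and 12.06 in Lcn2-/- control and 11.78, 11.90, 11.93 and 11.48 in Lcn2-/- CCl4 livers, and it was detected on all of them. On the same signal the Lcn2-/- level exceeded WT by at least 129-fold under CCl4 and by at least 59.1-fold in controls, from measured differences of 8.77 ± 0.307 and 7.66 ± 0.35 (log2, SE). These bounds too hold for this background subtraction alone, since the differences were 5.53 and 4.54 with normexp correction and 7.07 and 5.90 in the authors' table.

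Oas1f, a cluster member close to Oas1a, showed a split of the same kind on its single probe (chromosome 5, 121307929 to 121307988, plus strand). WT control arrays read 5.84, 5.29, 4.69 and 5.98 and WT CCl4 arrays read 6.18, 5.38, 4.68, 5.91 and 5.86, with 2 of 4 and 4 of 5 detected. Lcn2-/- control arrays read 11.96, 11.57 and 13.75 and Lcn2-/- CCl4 arrays read 12.69, 13.11, 13.27 and 12.91. No WT array reached the lowest Lcn2-/- array. The difference was 7.39 ± 0.416 (log2, SE) under CCl4 and 6.97 ± 0.474 in controls. Its size rests on WT values at or near background, and it was 5.94 and 5.41 with normexp correction and 6.66 and 6.14 in the authors' table.

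**Figure D1:**
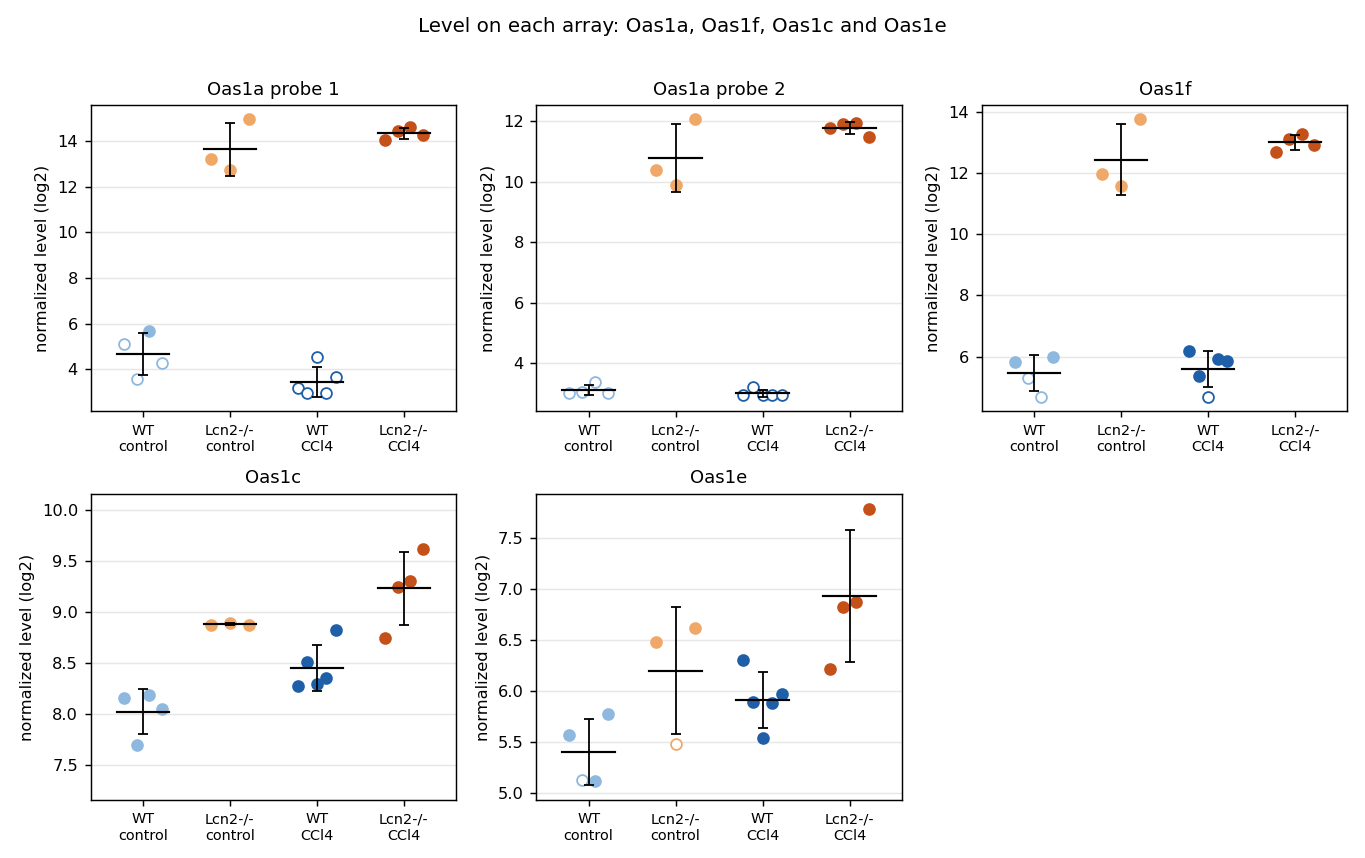
Normalized level (log2) of Oas1a probes 1 and 2, Oas1f, Oas1c and Oas1e on each array, by group. Filled points were well above background and open points were not, the horizontal line is the group mean and the bar is the SD. Each panel has its own axis, and in the first 3 panels every Lcn2-/- array lies above every WT array.

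The probe sequences bear on how the Oas1f values can be read, so the stretch that Oas1f shares with Oas1a is shown. Aligned over their length, the Oas1f probe and Oas1a probe 1 had 48 identical bases in an alignment that spans 55 of the 60 bases of the Oas1f probe. Its gap-free start covers 25 bases with 24 identical, and the capital marks the substitution A15G, with positions counted from 1 at the 5′ end of Oas1a probe 1. The Oas1a stretch lies at chromosome 5, 121346770 to 121346794 on the minus strand, and the Oas1f stretch at 121307931 to 121307955 on the plus strand (mm9). The first 30 bases of Oas1a probe 2 (121348368 to 121348397, minus strand) are printed with them as the sequence that gave the same split at another place in the gene.
Oas1a probe 1: tgtccacctgttggAaggttctgtc
Oas1f: tgtccacctgttggGaggttctgtc
Oas1a probe 2: tgatgtgtgggtatggtacccatgttttat
No other pair of the family's probes aligned as well as Oas1f with Oas1a probe 1, and the next was Oas1c with Oas1d, a cluster gene outside the chosen set, with 40 identical bases. Whether Oas1a RNA is read by the Oas1f probe was not tested, and the Oas1f level is uncertain for that reason. Whether the probes lie in exons or untranslated regions was not analysed here.

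Oas1g, whose probes lie between those of Oas1f and Oas1a on chromosome 5, was not detected in either genotype. Its probe 1 (121326151 to 121326210, minus strand) read between 2.88 and 3.02 over the 16 arrays. Its probe 2 (121326271 to 121326330, minus strand) read between 2.89 and 4.99. The Lcn2-/- CCl4 arrays of probe 2 read 4.77, 4.04, 4.91 and 4.99, which overlapped WT arrays that reached 4.73, and none was well above background. Both probes failed the filter for testing, so 11 of the 13 probes were tested. The Oas1a probes passed that filter, detection on at least 3 arrays, through the Lcn2-/- arrays.

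Oas1c and Oas1e are Oas1 copies held to lack synthetase activity, and their genotype differences were near 1 log2 unit. Oas1c (121250208 to 121250267, minus strand) read 8.15, 7.69, 8.18 and 8.05 in WT control and 8.87, 8.89 and 8.87 in Lcn2-/- control livers. Under CCl4 it read 8.27, 8.51, 8.29, 8.35 and 8.82 in WT and 8.74, 9.24, 9.30 and 9.62 in Lcn2-/- livers. The control groups did not overlap, and under CCl4 WT array 5 lay above Lcn2-/- array 1. The genotype difference was 0.86 ± 0.193 (log2, SE) in controls and 0.78 ± 0.169 under CCl4. Oas1e (121236573 to 121236632, minus strand) read 5.57, 5.13, 5.12 and 5.77 in WT control and 6.48, 5.48 and 6.62 in Lcn2-/- control livers, and array 2 of each group was not detected. Under CCl4 it read 6.30, 5.89, 5.54, 5.88 and 5.97 in WT and 6.22, 6.82, 6.87 and 7.79 in Lcn2-/- livers. The groups overlapped in both treatments, with differences of 0.80 ± 0.338 in controls and 1.01 ± 0.297 under CCl4.

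Over the 11 tested probes, the groups did not overlap for 3 under CCl4 (Oas1f and both Oas1a probes) and for 4 in controls (with Oas1c), each time with Lcn2-/- higher. Over all 33014 probes tested, 2.35% did so under CCl4 and 4.11% in controls, and 0.424% in both. In either treatment, 0 probes of the family had Lcn2-/- below WT without overlap, beside 2.97% and 5.28% of all probes. Since this contrast chose the genes, nothing is read from these shares.

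Oas2 and Oas3, the larger active synthetases beside the Oas1 copies, overlapped between the genotypes in both treatments. Oas2 (121180343 to 121180402, minus strand) read 10.75, 11.12, 12.30 and 11.11 in WT control, 11.32, 11.11 and 12.24 in Lcn2-/- control, 11.49, 12.07, 11.75, 11.56 and 11.79 in WT CCl4 and 11.56, 11.42, 12.04 and 11.94 in Lcn2-/- CCl4 livers. The highest array of all was WT control 3, followed by Lcn2-/- control 3, and the genotype difference under CCl4 was 0.01 ± 0.293 (log2, SE). Oas3 (121203598 to 121203657, minus strand) read 6.19, 6.02, 8.18 and 6.50 in WT control, 6.21, 6.24 and 7.94 in Lcn2-/- control, 7.23, 7.77, 7.62, 7.24 and 7.56 in WT CCl4 and 7.51, 7.43, 7.69 and 7.39 in Lcn2-/- CCl4 livers. Leaving aside array 3 of each control group, every CCl4 array lay above every control array for Oas3. Its genotype difference under CCl4 was 0.02 ± 0.412, with an interval from -0.87 to 0.90.

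Oasl2, an interferon-induced member with a ubiquitin-like tail, did not separate the genotypes either. Its probe lies away from the cluster on the same chromosome (115362168 to 115362227, plus strand). It read 10.54, 10.91, 12.07 and 10.34 in WT control, 10.39, 10.49 and 11.85 in Lcn2-/- control, 10.86, 12.14, 12.25, 11.22 and 11.52 in WT CCl4 and 11.64, 11.63, 11.51 and 11.40 in Lcn2-/- CCl4 livers. All groups overlapped, and the genotype difference was -0.05 ± 0.387 (log2, SE) under CCl4 and -0.05 ± 0.441 in controls. Oasl1 (115387861 to 115387920, plus strand), known as a translational brake on Irf7, the interferon regulatory factor, read 13.12, 12.70, 14.18 and 12.93 in WT control, 14.18, 14.00 and 14.50 in Lcn2-/- control, 12.60, 13.71, 13.30, 13.07 and 13.18 in WT CCl4 and 13.65, 14.07, 14.16 and 13.98 in Lcn2-/- CCl4 livers. In each treatment a single WT array reached into the Lcn2-/- range, namely WT control 3 and WT CCl4 2. The difference was 1.00 ± 0.31 in controls and 0.79 ± 0.272 under CCl4. Set side by side, the genotype differences under CCl4 ranged among the cluster's probes other than those of Oas1a from 0.01 on Oas2 to 7.39 on Oas1f, and they were 0.79 and -0.05 for Oasl1 and Oasl2 outside it.

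Oas1b, the flavivirus resistance gene, had 2 probes, whose responses were not tested against each other. Probe 1 (121273890 to 121273949, plus strand) read 11.12, 11.69, 10.91 and 10.96 in WT control, 11.33, 11.48 and 11.44 in Lcn2-/- control, 10.45, 10.24, 10.59, 10.73 and 10.88 in WT CCl4 and 11.21, 11.17, 10.74 and 11.07 in Lcn2-/- CCl4 livers. Within each genotype every CCl4 array lay below every control array. Probe 2 (121274109 to 121274168, plus strand) read 16.22, 16.39, 16.11 and 16.11 in WT control, 16.37, 16.55 and 16.38 in Lcn2-/- control, 16.13, 16, 16.22, 16.05 and 16.35 in WT CCl4 and 15.96, 16.15, 16.19 and 16.54 in Lcn2-/- CCl4 livers. On probe 2 the groups overlapped in both genotypes.

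**Figure D2:**
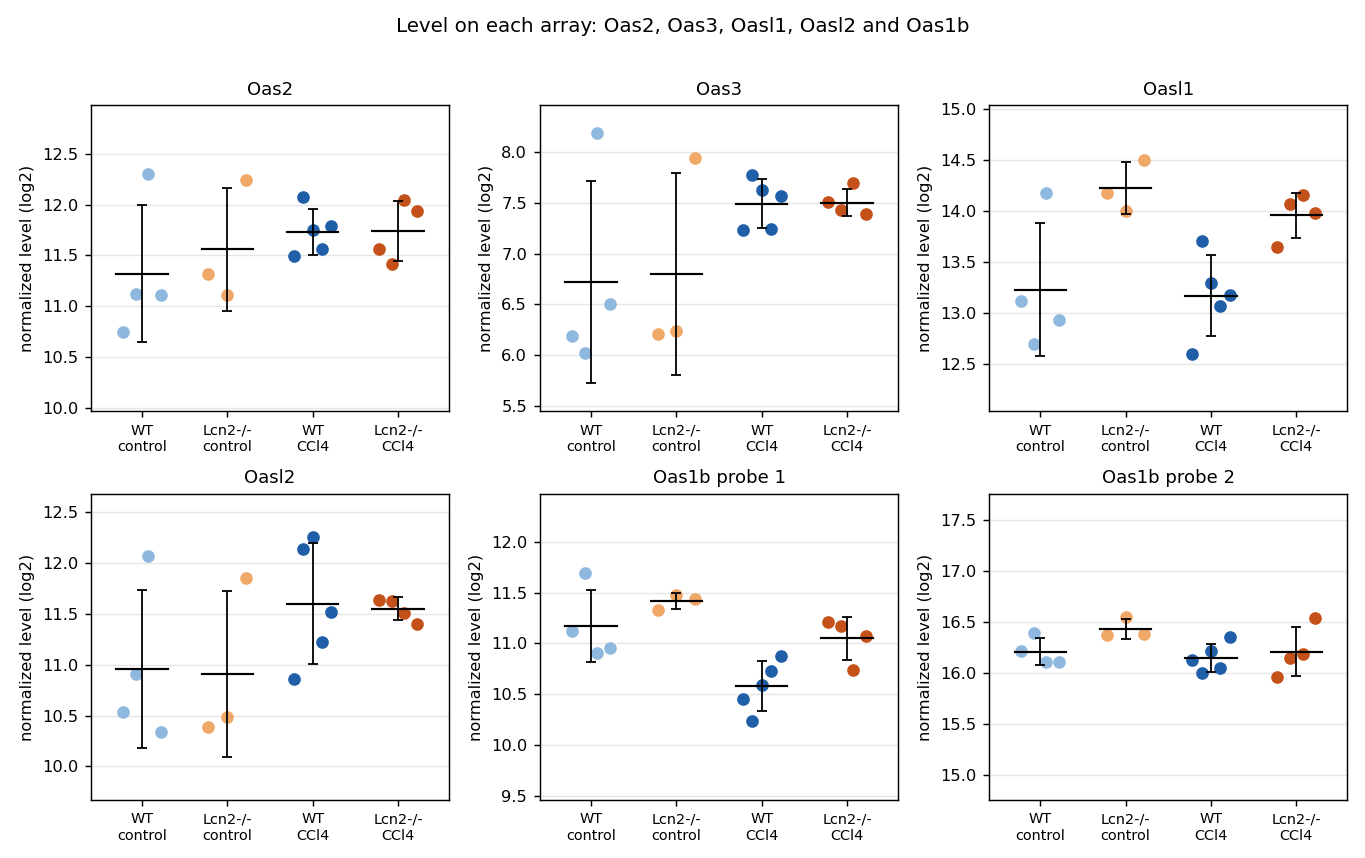
Normalized level (log2) of Oas2, Oas3, Oasl1, Oasl2 and Oas1b probes 1 and 2 on each array, by group, all of them well above background. The line is the group mean and the bar is the SD, and each panel has its own axis. The highest control point for Oas2, Oas3, Oasl1 and Oasl2 is array 3 of its group.

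The response to CCl4 asks what repeated injury did to the family in each genotype, a contrast that did not choose the genes. With all 16 arrays, 1 of 11 probes was called in WT at limma's adjusted p under 0.05, against 15% of all probes tested. That probe was Oas1b probe 1, which fell by 0.59 on the log2 scale (SE 0.171, adjusted p = 0.032). The 11 probes of this and the other WT and interaction counts include both Oas1a probes. WT arrays hardly detected these, so their WT response cannot be judged, and the call lay among the other 9. With the replicate number as a block 2 probes were called, against 4569 of all 33014 probes tested. Oas1a probe 1 was added at -1.26 (adjusted p = 0.029), a probe detected on 1 of 9 WT arrays. Oas1b probe 2 differed by -0.06 (SE 0.122, adjusted p = 0.796). The fall on Oas1b probe 1 was no longer called with slide as a block, where the value was -0.72 (adjusted p = 0.192), or in 5 of the fits that left out 1 array. These were the fits without WT control 1 (adjusted p = 0.0721), WT control 2 (0.109), WT CCl4 1 (0.0678), WT CCl4 2 (0.0765) and WT CCl4 3 (0.0518).

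In Lcn2-/- livers 0 of 11 probes were called, against 11.1% of all probes, while 2 had an unadjusted p under 0.05 and 1 (Oas1g probe 2, not detected on any array) was called when dim probes were kept. The lowest adjusted p was that of Oas1a probe 2, which was higher by 0.99 (log2, SE 0.35, adjusted p = 0.0847). Oas1a probe 1 differed by 0.70 (SE 0.551, adjusted p = 0.454) and Oas1f by 0.57 (SE 0.474, adjusted p = 0.482). Over the 9 tested probes other than those of Oas1a, which WT arrays hardly detected, the median response was 0.35 in Lcn2-/- and 0.41 in WT, beside medians over all probes of -0.02 and -0.035. Every CCl4 array lay above every control array for Oas1c alone in WT (7.65% of all probes) and for 0 probes in Lcn2-/- livers (11.8%), and every one lay below for Oas1b probe 1 alone in both genotypes (8.89% and 12%). Oas1c differed by 0.43 in WT (SE 0.169, adjusted p = 0.105).

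The interaction, which is how much larger the response was in Lcn2-/- than in WT livers, called 0 of 11 probes, against 0.0333% of all probes, and 2 had an unadjusted p under 0.05. These were Oas1a probe 1 (1.91 ± 0.733 log2, SE, adjusted p = 1) and Oas1a probe 2 (1.11 ± 0.466, adjusted p = 1), and since their WT side came from arrays with almost no detected signal, nothing is read from these values. For Oasl2 the interaction was 0.00, with a 95% interval from -1.25 to 1.26. For Oas3 it was -0.06, with an interval from -1.40 to 1.28, so a response that differs by over 2-fold between genotypes in either direction lies within the interval.

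Control array 3 of each genotype bore on these counts. Of the 9 tested probes other than those of Oas1a, it was the highest WT control for 5 and the highest Lcn2-/- control for 6, and it was both for 4, against 20.1%, 31.9% and 12.8% of all probes. For Oas3, WT control 3 stood 1.94 above the mean of the other WT controls and Lcn2-/- control 3 stood 1.71 above its own. For Oasl2 these gaps were 1.47 and 1.41, and for Oas2 they were 1.30 and 1.03. In the Lcn2-/- controls the gaps were 1.97 and 1.92 on Oas1a probes 1 and 2 and 1.99 on Oas1f. Oas1b probe 2 had gaps of -0.13 and -0.08. The macrophage and neutrophil markers were high on the same arrays, and their part in these levels was not tested.

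These 2 arrays were left out after the data were seen, which raises the response of interferon-induced probes and narrows their spread by construction. Calls without them, together or singly, are therefore descriptions and not tests of the family. Without both arrays, 4 of 11 probes were called in WT, against 20.1% of all probes. Oas3 rose by 1.25 (log2, SE 0.155, adjusted p = 0.000127), Oasl2 by 1.00 (SE 0.278, adjusted p = 0.0235) and Oas2 by 0.74 (SE 0.179, adjusted p = 0.0116), and Oas1b probe 1 fell by 0.68 (SE 0.191, adjusted p = 0.0253). With all 16 arrays Oas3, Oasl2 and Oas2 differed by 0.77, 0.63 and 0.41 in WT (adjusted p = 0.235, 0.302 and 0.38). In Lcn2-/- livers 4 of 11 were called, against 13.4%. Oas1a probe 2 rose by 1.63 (SE 0.165, adjusted p = 7.2e-05), Oas3 by 1.28 (SE 0.184, adjusted p = 0.000765), Oas1f by 1.23 (SE 0.355, adjusted p = 0.038) and Oasl2 by 1.10 (SE 0.33, adjusted p = 0.044), while Oas1a probe 1 differed by 1.36 (SE 0.457, adjusted p = 0.0723). With all 16 arrays Oas3 and Oasl2 differed by 0.71 and 0.64 in Lcn2-/- livers (adjusted p = 0.366 and 0.388). Leaving out Lcn2-/- control 3 alone was enough for Oas1a probe 2 in Lcn2-/- livers, with a response of 1.63 (adjusted p = 0.000118). Whether the Oas1a response differs between genotypes cannot be judged, since probe 2 was detected on no WT array. Leaving out WT control 3 alone was enough for Oas3 (adjusted p = 0.0145) and Oas2 (adjusted p = 0.0484) in WT. Slide goes with treatment except for WT CCl4 1. With slide as a block and all 16 arrays, 0 of 11 family probes were called in either genotype. That block also lowered the calls over all 33014 probes, in WT from 4955 to 1502, and they fell in Lcn2-/- livers too. The family's count of 0 is therefore not read as a loss particular to the family. With slide as a block the Oasl2 response was -0.11 (SE 0.619) in WT and -0.29 (SE 0.749) in Lcn2-/- livers. That of Oas3 was 0.51 (SE 0.706) and 0.39 (SE 0.855).

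**Figure D3:**
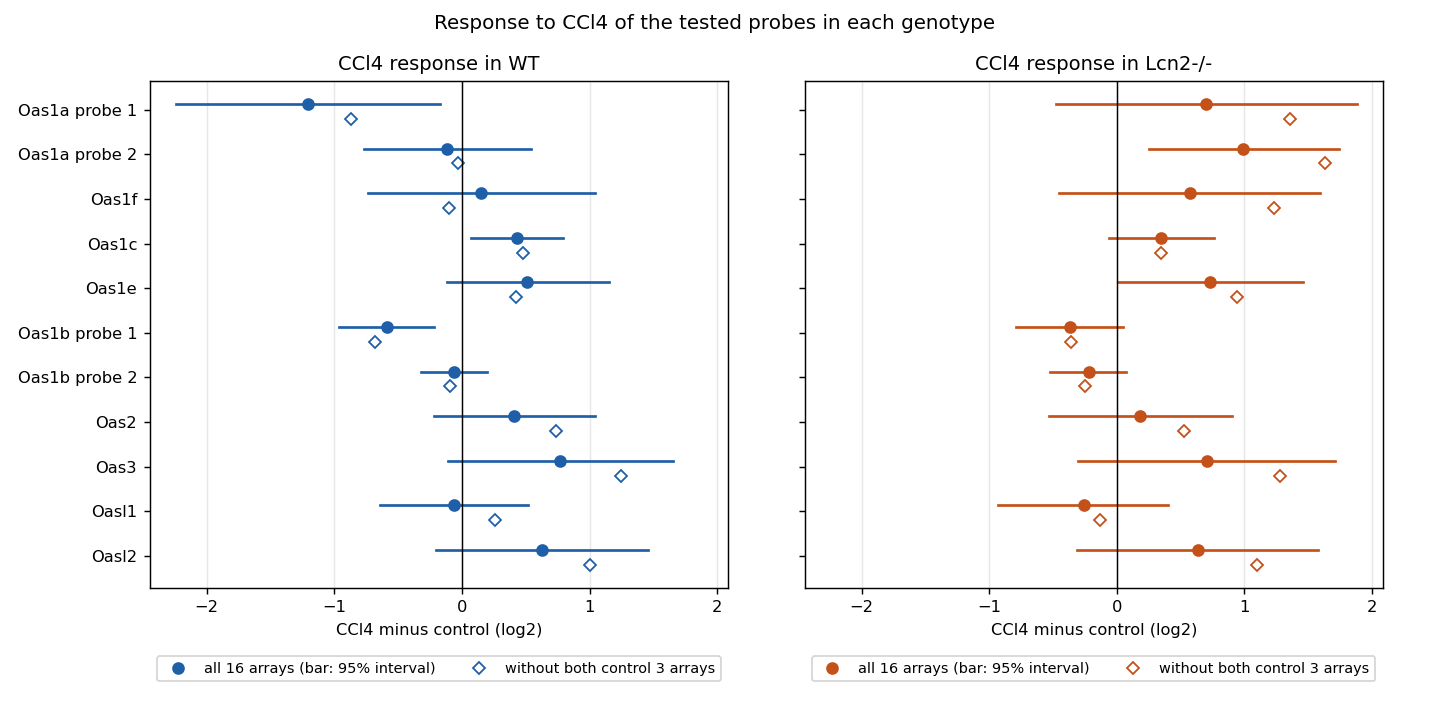
CCl4 minus control (log2) of the 11 tested probes in WT (left) and Lcn2-/- livers (right). Filled points with 95% intervals use all 16 arrays and open diamonds leave out WT control 3 and Lcn2-/- control 3. Oas3 moves from 0.77 to 1.25 in WT and from 0.71 to 1.28 in Lcn2-/- livers, whereas Oas1b probe 2 stays near 0.

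Within the Lcn2-/- livers, where Oas1a could be measured, its level moved from array to array with that of some members and not of others. The SD over the 7 Lcn2-/- arrays of the difference between a probe and Oas1a probe 1 was 0.0761 for Oas1f, and 0 of the other probes tested tracked it more closely. It was 0.221 for Oas3, with 12 probes closer, 0.225 for Oas1a probe 2, with 14 closer, and 0.322 for Oasl2, with 122 closer. Oas1a probe 1 itself ranged over 2.21 log2 units on these arrays, Oas3 over 1.73 and Oasl2 over 1.45. The SD was 0.47 for Oas2 (1.9% of the other probes closer), 0.642 for Oas1e (7.99%), 0.733 for Oas1c (17.7%) and 0.737 for Oasl1 (18.4%). It was 0.885 for Oas1b probe 2 (52.2%) and 0.929 for Oas1b probe 1 (60.9%). These are descriptions over 7 arrays of 2 treatments, and Lcn2-/- controls 1 and 2 against control 3 make up most of the range. The Oas1f probe has 48 aligned bases identical to Oas1a probe 1, and whether it reads Oas1a RNA was not tested. Its closeness is therefore not read as separate genes varying together.

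**Figure D4:**
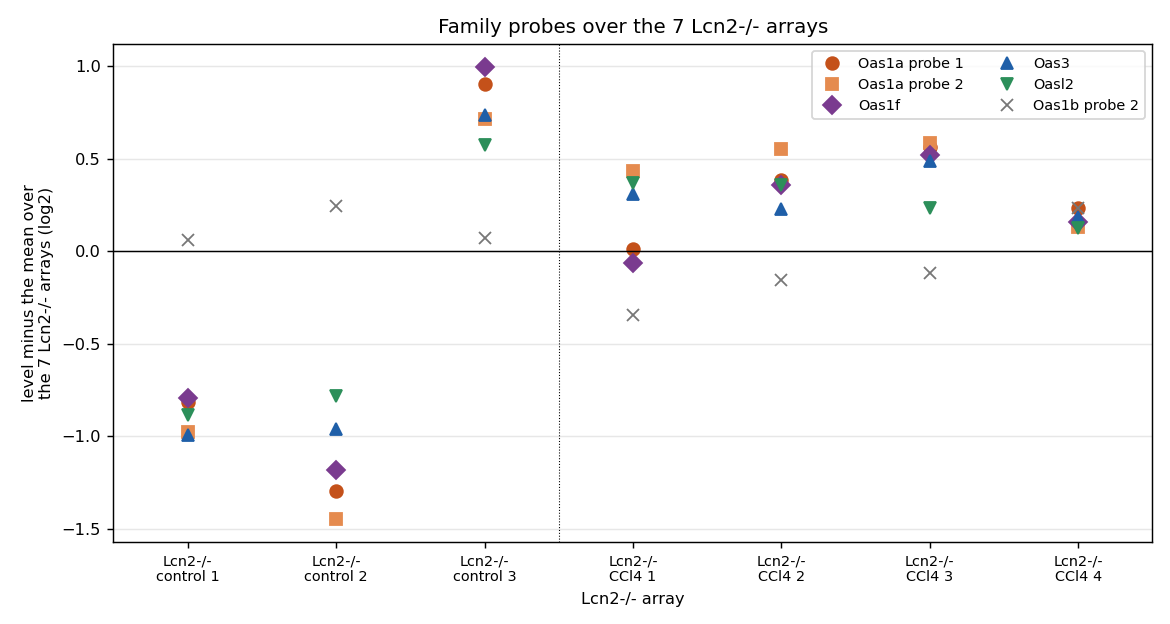
Level of 6 family probes on each of the 7 Lcn2-/- arrays, as the difference (log2) from the probe's mean over those arrays. Oas1a probes 1 and 2, Oas1f, Oas3 and Oasl2 are low on controls 1 and 2 and high on control 3, while Oas1b probe 2 does not follow them. Whether the Oas1f probe reads Oas1a RNA was not tested.

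The promoters are shown because Oas1a varied with the interferon-induced Oas3 and Oasl2 on the Lcn2-/- arrays, while Oas1g was not detected. RefSeq sequences of assembly GRCm38.p6, the C57BL/6J reference and not BALB/c, were at hand for 7 of the 10 genes (Oas1a, Oas1c, Oas1f, Oas1g, Oas3, Oasl1 and Oasl2), from 250 bases before to 50 after the start. They were searched on both strands for GAAANNGAAA, letters found in interferon-stimulated response elements, with overlapping matches allowed. The letters occurred in 4 of the 7 (Oas1a, Oas1c, Oas1g and Oas3) and in 3.44% of 32851 promoters. The longer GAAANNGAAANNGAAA, which is made of 2 overlapping copies, occurred in Oas1a, Oas1g and Oas1c and in 0.116% of promoters. The exact letters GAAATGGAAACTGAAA of Oas1a occurred in those 3 genes and in 7 promoters in all. Capitals mark the matches below. The Oas1a line is the 60 bases before the start, chr5:120907526-120907585 on the minus strand, the Oas1g line is chr5:120887614-120887673, minus, and the Oas1f line is chr5:120847307-120847366, plus. The Oas1c (chr5:120812590-120812649, minus) and Oas3 (chr5:120777700-120777759, minus) lines are the 60 bases around their matches.
Oas1a: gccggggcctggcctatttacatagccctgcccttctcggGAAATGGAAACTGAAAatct
Oas1g: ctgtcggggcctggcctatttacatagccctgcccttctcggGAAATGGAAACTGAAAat
Oas1f: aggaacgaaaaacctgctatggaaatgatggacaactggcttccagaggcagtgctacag
Oas1c: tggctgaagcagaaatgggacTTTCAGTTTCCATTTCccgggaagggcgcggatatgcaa
Oas3: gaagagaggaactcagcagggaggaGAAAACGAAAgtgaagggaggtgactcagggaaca
With Oas1g shifted by 2 bases, 57 of 58 bases were identical between Oas1a and Oas1g in this reference sequence. The Oas1a probes were detected on the Lcn2-/- arrays and, by probe 1, on 1 WT array, and the Oas1g probes on none. Whether the promoters bear on these levels was not tested. The Oas1f window held no match, which says only that these letters are not in it.

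The genes around the family were compared in the same way, to see how far along chromosome 5 the genotype difference reached. Of 121 tested probes within 2 Mb of the cluster and outside the family, 1 was called higher in Lcn2-/- under CCl4 (0.826%, against 0.533% of all probes), and 2 were called higher in controls (1.65%, against 0.479%). They were Anapc5, a subunit of the anaphase-promoting complex, at 0.82 ± 0.145 (log2, SE) under CCl4, and in controls Adam1a, at 2.14 ± 0.325, and an unnamed transcript (120253825 to 120253884) at 5.51 ± 0.216. Adam1a and the unnamed transcript were each detected on 3 arrays only, the minimum for testing. Their control differences therefore rest at least in part on values at background, and nothing is read from these calls or from the 1.65%. Under CCl4 these probes differed by 0.17 (adjusted p = 0.841) and -0.01 (adjusted p = 0.993). Within 2 Mb of the Oasl probes, 3 of 108 were called in each treatment (2.78%, against the same 0.533% and 0.479% of all probes). Sgsm1 was higher by 1.97 under CCl4 and 2.27 in controls, and Dynll1, a dynein light chain, by 1.64 and 2.01. The Sgsm1 probe was detected on 5 arrays only, so its differences too rest at least in part on values at background. Ssh1, a cofilin phosphatase, was called in controls at 0.98, and 1500011B03Rik was lower under CCl4, at -2.12. Of the tested probes outside the family from 9.8 Mb before to 10.0 Mb after Oas1a, 0 differed by over 3 log2 units in either direction under CCl4 and 3 did in controls, the unnamed transcript above among them. Another of these 3 differed by 3.63 in controls and by 2.65 under CCl4. Chromosome 5 probes outside this span were not counted. Among them Zfp33b, named below for its pattern, had WT means at background, 2.96 in controls and 2.93 under CCl4. Its Lcn2-/- means were 8.14 and 7.38. An unnamed transcript named there had 3.05 and 3.09 in WT and 6.77 and 6.56 in Lcn2-/- livers.

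**Figure D5:**
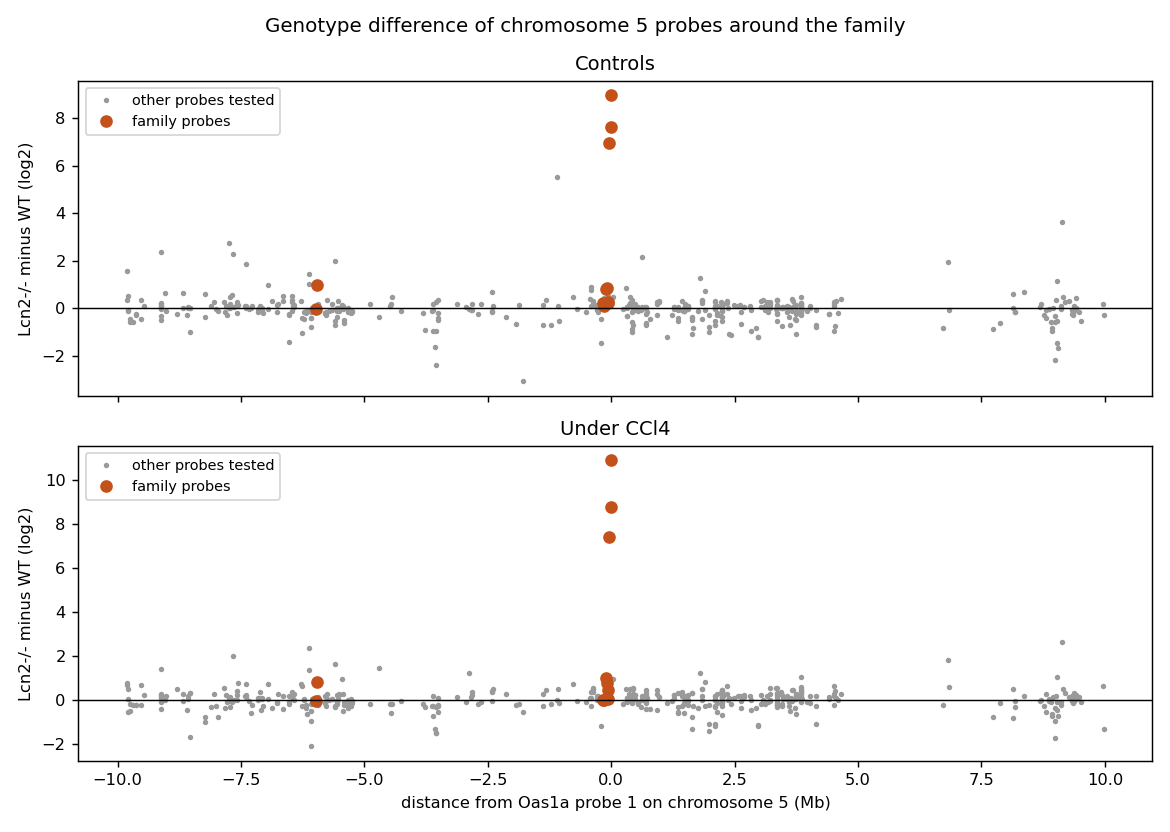
Lcn2-/- minus WT (log2) of 471 tested probes on chromosome 5 by their distance in Mb from Oas1a probe 1, in controls (top) and under CCl4 (bottom). Family probes are the large points. Both Oas1a probes and Oas1f stand at 6.97 or more, and the Oasl probes lie on the left near 0 and 1.

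The other genes of the pathway were taken from lists written beside the family. Of 9 genes of oligoadenylate turnover and RNA sensing, 8 were tested, and 0 were called in any of the 5 contrasts, with 0 at an unadjusted p under 0.05 in either CCl4 response and 0 without both control 3 arrays. For CCl4, 15% of all probes were called in WT and 11.1% in Lcn2-/- livers. Of 16 interferon receptor and signalling genes, 2 were called in WT with CCl4, a share below the 15% of all probes. Irf3, a regulator that triggers interferon transcription, rose by 0.34 (SE 0.0929, adjusted p = 0.0239), and Ifnar2, a subunit of the type I interferon receptor, fell by 0.41 (SE 0.127, adjusted p = 0.0415). Without both control 3 arrays 2 were called in WT (Irf3 and Irf8), against 20.1% of all probes, and Ifnar2 was not (-0.35, adjusted p = 0.104). In Lcn2-/- livers 0 of the 16 were called, against 11.1% of all probes, with 0 at an unadjusted p under 0.05. Without both control 3 arrays 1 (Irf8) was called there, against 13.4%.

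Of 30 further interferon-stimulated genes, 0 were called in any contrast, against 15% and 11.1% of all probes for CCl4 in WT and Lcn2-/-. For CCl4, 2 had an unadjusted p under 0.05 in WT and 1 in Lcn2-/-. Without both control 3 arrays 6 rose in WT and 3 in Lcn2-/-, with Ifit2, Ifi44 and Samd9l among both, beside 20.1% and 13.4% of all probes called, so these shares are no higher than the background. The list's median between genotypes was -0.49 under CCl4, beside 0.0063 over all probes, and -0.09 in controls, beside -0.0094 (-0.28 without both control 3 arrays). For the marker lists the genotype medians under CCl4 were -0.88 (neutrophil), -0.36 (macrophage and Kupffer cell), -0.32 (T, B and NK cell) and -0.12 (plasmacytoid dendritic cell). They were -0.04 (hepatocyte), 0.15 (pancreas) and -0.47 (intestine), and the part of other cells in the interferon list's median was not tested. Of the 30 genes, 27 were highest on array 3 in both control groups. Among the other marker lists, 4 of 5 neutrophil markers rose with CCl4 in WT, against 15% of all probes called, and 0 in Lcn2-/-, against 11.1% (4 in each genotype without both control 3 arrays), and the interaction called 0 of them. The macrophage marker Cd68 rose in both genotypes, by 2.12 in WT (log2, adjusted p = 0.00741) and 1.84 in Lcn2-/- (adjusted p = 0.0404), and Clec4f, of Kupffer cells, fell by 1.03 in WT (adjusted p = 0.00604). Without both control 3 arrays Adgre1 was also called higher in WT (1.17, adjusted p = 0.00162) and in Lcn2-/- (0.87, adjusted p = 0.033), and Vsig4 lower in WT (-0.51, adjusted p = 0.0333). Ly6d, on the plasmacytoid dendritic cell list, rose by 4.14 and 6.23 (adjusted p = 0.000129 and 2.5e-05), while Siglech fell by 0.62 in Lcn2-/- (adjusted p = 0.0366), and Bst2 was called in WT only without those arrays (0.66, adjusted p = 0.00941). Cd3e, of T cells, differed by -0.88 in WT and was called with all arrays (adjusted p = 0.032) but not without both control 3 arrays (adjusted p = 0.0503), where Ncr1, of NK cells, was called instead (1.22 in WT and 1.80 in Lcn2-/-, adjusted p = 0.0434 and 0.0223). Of the pancreas and intestine markers, Amy2a5 rose by 1.16 and Ctrb1 fell by 0.89 in WT (adjusted p = 0.0146 and 0.015). Fabp2 fell by 0.82 in Lcn2-/- (adjusted p = 0.00214), and in WT it was called without both control 3 arrays alone (-0.39, adjusted p = 0.049). No hepatocyte marker was called in either genotype. None of the 6 hepatocyte markers was highest on array 3 in both groups, while all 6 macrophage markers were. For plasmacytoid dendritic cells, a main source of type I interferon, 3 of 5 markers were (Ccr9, Ly6d and Bst2). Bst2 is also among the 30 interferon-stimulated genes, and Siglech and Tcf4 were highest on array 3 in neither group. For T, B and NK cells 3 of 5 tested markers were highest on it in both groups. Of pancreas and intestine markers, 3 and 2 were detected well enough to be tested, and 0 and 1 of these were highest on array 3 in both groups.

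Genes outside the family with the most similar pattern were named by Pearson's r over the 16 arrays, as a description. For Oas1a probe 1 the arrays fall into 2 genotype clusters, so r mostly measures that split. The closest were Olfr1052 (0.986), Adamts13 (0.985) and Olfr1033 (0.983), all on chromosome 2, which also carries Lcn2, followed by an unnamed transcript on chromosome X (0.976), another on chromosome 5 (0.976) and Zfp33b (0.972) on chromosome 5. Adamts13, the protease that cuts von Willebrand factor, had means of 2.98 in WT control, 7.87 in Lcn2-/- control, 3.16 in WT CCl4 and 8.44 in Lcn2-/- CCl4 livers. For Oasl2, whose levels did not follow genotype, the closest were Ifi203 (0.97), an interferon-inducible DNA-sensing gene, Irf8 (0.956), a regulator of myeloid cells, Trim30d (0.954), an unnamed transcript on chromosome 1 (0.953), Filip1l (0.948) and Tmem229b (0.947).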

How the data were processed

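The authors labelled whole-liver RNA with Cy3, hybridised it to Agilent G4852B arrays and scanned them with Feature Extraction 10.7.3.1. Per the file headers, each file holds spot intensity values of 1 array on a linear scale with background subtracted, and positions are on mm9. A log2 table of the same arrays was deposited too, of which 99.86% lay within 0.05 of the log2 background-subtracted median signal after quantile normalization, and it was used as an alternative. Control and outlier spots were left out. The log2 processed signal was quantile normalized, spots of a probe were averaged, and the 33014 probes well above background on at least 3 of 16 arrays were fitted with limma 3.58.1 in R 4.3.3, in 1 model over the 4 groups. Benjamini-Hochberg adjustment covered all tested probes within a contrast, and the fit was tested on simulated data. Signal over background and the number of arrays limit the precision, and 0 gene spots were saturated. Members and gene lists were chosen with earlier results of these data known. All member probes are described. Some genes of the lists are not reported here. From each of the 3 pathway lists, but not the cell type marker lists, up to 4 genes called in a CCl4 response are named, from each window of 2 Mb up to 6 called neighbours, and the 6 genes closest to Oas1a probe 1 and to Oasl2. Genes of lists were read on their brightest tested probe. Replicate numbers came from the sample titles, and p-values measure the spread between these samples. Same-numbered WT and Lcn2-/- controls deviated together (r across probes of 0.201, 0.375 and 0.516), and no other pair of groups had all r over 0.1. The model had no replicate block, and a block over all groups was an alternative. Slide 1 held all controls and WT CCl4 1, and slide 2 the other CCl4 arrays, so slide and treatment can be separated only through WT CCl4 1. On each slide the genotypes lay in different rows, except WT CCl4 1, which lay in the row of the Lcn2-/- controls. Same-numbered controls of both genotypes shared a column of the slide, among them WT control 3 and Lcn2-/- control 3. Replicate number and column therefore cannot be told apart in the controls. Alternatives covered scaling, background correction, filters, probe choice, replicate number, slide, weights, variance prior and each array left out.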

Additional observations from a re-analysis of the deposited data

Results flagged for a closer look

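Of 33 groups of 4 or 5 arrays examined for an array far from the others, 2 held one, both for Oas1a probe 2 in WT livers, and chance marks about 1 in 20 groups. WT control 3 read 3.36 with the nearest array at 3.06, and WT CCl4 2 read 3.21 with the nearest at 2.95. All of these values were below detection.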

How the results depend on the processing

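The genotype difference of Oas1a probe 1 under CCl4, 10.88, was 7.83 with normexp background correction and 9.14 in the authors' log2 table, and in controls 8.98 became 6.78 and 7.67. Without each array in turn it ranged from 10.76 to 11.15 and from 8.32 to 9.42, and under CCl4 on slide 2 alone, without WT CCl4 1, it was 10.81. All controls lay on slide 1, so the control value of 8.98 on that slide is the main value and no check of it. The number of probes called for CCl4 in WT, 1 of 11, was 2 with 75th percentile scaling (Oas1a probe 1 added), 0 with 1 probe per gene, 0 with slide as a block, 3 with array weights, 0 to 3 without each array in turn and 4 without both control 3 arrays. Of all 33014 probes, the main fit called 4955 there, 75th percentile scaling 6218, slide as a block 1502 and array weights 8673. The fits without each array called 2969 to 6183, and that without both control 3 arrays 6642. With 1 probe per gene, 4094 of 24357 were called. In Lcn2-/- the count of 0 became 1 with no filter, 2 with array weights (Oas3 and Oas1a probe 2), 0 to 1 without each array in turn and 4 without both control 3 arrays. The interaction count of 0 became 0 to 1 without each array in turn and 1 without both control 3 arrays, through Oas1a probe 2, which no WT array detected. Over all probes the interaction called 11 in the main fit, and 8 to 17 and 16 in these 2 settings. In the fit with replicate number as a block over all groups, 2 probes were called in WT, against 4569 of all 33014 probes. Oas1a probe 1 was added there, at -1.26 (adjusted p = 0.029). The Oas1a differences were 10.94 and 8.88 in that fit. No other call of a family probe changed under the block, and calls of list genes and neighbours under it are not reported here. For single probes, 37 of 882 values under alternatives had another sign than the main value, none of them called. Oas1a was detected on 1 WT array by probe 1 and on 0 by probe 2, which limits what its WT levels can show.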
